A study of Drosophila melanogaster with 3 samples.

Results

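The centromere-side ends of 4 Drosophila chromosome arms held 304 of the 5159 sites at which ORC2 was mapped in Kc167 cells. Kc167 is a female line derived from late-stage embryos, with the genotype se/e. ORC2 is a subunit of the origin recognition complex (ORC), and asynchronous cultures were profiled by chromatin immunoprecipitation and sequencing (ChIP-seq) with a crude rabbit polyclonal antibody raised against purified full-length Drosophila ORC2. The labels list 2 ORC2 ChIP libraries, each from its own extraction, and 1 library of input DNA, all from this single line and with no treatment named, so no treatment or genotype was compared. The ends were defined by position alone, as the joined peaks that start at 20 Mb or beyond on 2L, at 22 Mb or beyond on 3L, at 20 Mb or beyond on X, or before 2 Mb on 3R. This gave 90 sites on 2L, 42 on 3L, 72 on X and 100 on 3R. The reference for each end was the rest of the same arm, which held 764 sites on 2L, 899 on 3L, 1065 on X and 1059 on 3R. All positions are on FlyBase release 5, per the file headers.

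ORC binds chromatin at sites where DNA replication can begin and loads the replicative helicase there before S phase. In Drosophila it shows no strict consensus sequence. Toward the centromere each arm passes from gene-rich euchromatin into pericentromeric heterochromatin, which is rich in repeats, replicates late in S phase and carries the protein HP1, to which ORC is known to bind. The arm sequences of release 5 run some way into this heterochromatin, and further mapped stretches are held on separate Het scaffolds.

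Sites used here came from 3 peak lists made by the authors. Replicate 1 held 8970 peaks over all chromosomes and 524 in the 4 ends, and replicate 2 held 6593 and 412. The joined list of the series combines them. On these arms, all 4091 joined peaks had the outer limits of the overlapping peaks of both replicates, so every joined site is by construction found in both replicates and is no separate measurement. Read depth is unknown for both libraries. Intervals given below are exact 95% intervals that cover counting error of peaks only. Peaks lie in clusters and are not replicates, so these intervals are narrower than the true uncertainty, and no test across the 2 libraries was run.

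Fewer sites per Mb were found in the ends of 2L, 3L and X than in the rest of those arms, and the end of 3R went the other way. On 3L, the end held 16.6 joined sites per Mb (11.96 to 22.4), against 40.9 (38.2 to 43.6) in the rest of the arm, a ratio of 0.406 (0.291 to 0.553). On X, the end held 29.8 per Mb (23.3 to 37.5), against 53.25 (50.1 to 56.5) in the rest, a ratio of 0.560 (0.435 to 0.711). On 2L, the end held 30.4 per Mb (24.4 to 37.4), against 38.2 (35.5 to 41.0), a ratio of 0.796 (0.632 to 0.991). On 3R, the end held 50 per Mb (40.7 to 60.8), against 40.9 (38.5 to 43.4), a ratio of 1.22 whose interval of 0.986 to 1.50 includes 1. Summed over the 4 arms, the ends held 0.712 times the number of sites predicted from the rest of each arm (0.634 to 0.797, with the prediction taken as fixed).

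Each replicate alone gave the same directions. On 3L the ratio of the end to the rest was 0.427 (0.336 to 0.535) in replicate 1 and 0.570 (0.444 to 0.721) in replicate 2. On X the ratios were 0.594 (0.489 to 0.715) in replicate 1 and 0.589 (0.471 to 0.728) in replicate 2. The difference on 2L was smaller in the single lists, at 0.921 (0.783 to 1.08) in replicate 1 and 0.889 (0.734 to 1.07) in replicate 2, and both intervals include 1. The 3R ratios of 1.09 (0.920 to 1.29) in replicate 1 and 1.13 (0.930 to 1.37) in replicate 2 also include 1.

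**Figure D1:**
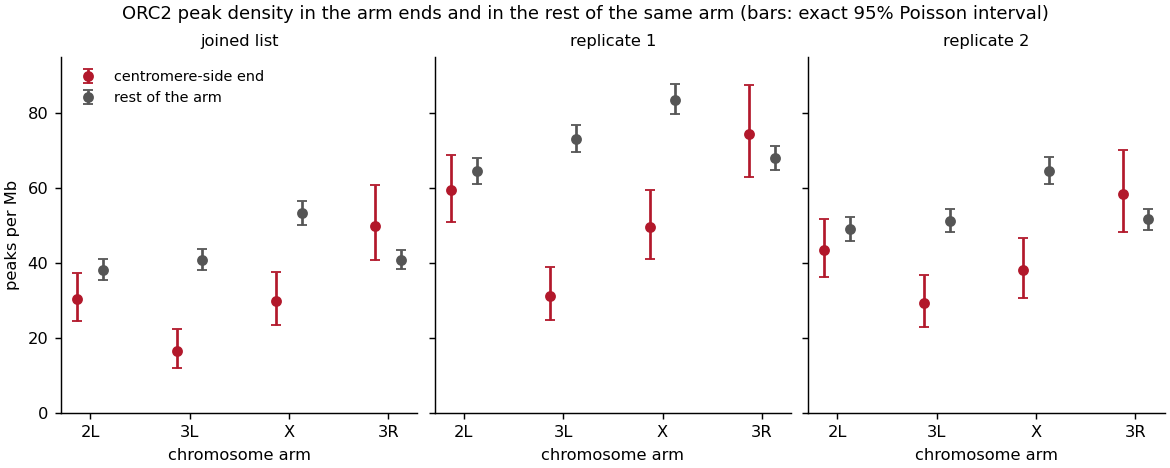
Peaks per Mb (vertical axis) in the centromere-side end (left point of each pair) and in the rest of the same arm (right point), by arm, for the joined list and each replicate, with exact 95% Poisson intervals as bars. The ends of 3L and X lie below the rest in all 3 lists, and the interval of the 3R end (40.7 to 60.8 per Mb in the joined list) overlaps that of the rest of 3R.

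The opposite end of each arm was set beside the centromere-side end at equal length. On 2L the centromere side held 30.4 joined sites per Mb, against 48.0 (40.4 to 56.5) at the telomere side. The same comparison gave 16.6 against 42.3 (34.6 to 51.1) on 3L and 29.8 against 55.9 (46.9 to 66.1) on X. On 3R the order was turned round, with 50 per Mb at the centromere side and 33.0 (25.5 to 42.0) at the telomere side, although these intervals overlap.

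In the joined list, 500 kb steps at or below the sparsest full step of the rest lay in the ends of 2L, 3L and X. Toward the centromere, they started at 22.5 Mb on 2L, at 23, 23.5 and 24 Mb on 3L, and at 21.5 and 22 Mb on X. No such step was seen on 3R. On 2L the steps starting at 20, 20.5, 21, 21.5, 22 and 22.5 Mb held 20, 23, 22, 10, 14 and 1 joined sites. The last of these steps is 0.461 Mb long, and its density of 2.17 per Mb lay below each of the 40 full steps in the rest of 2L, which held 4 to 38 sites with a median of 20.5. The first 3 steps lay close to that median.

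On 3L the steps starting at 22, 22.5, 23, 23.5 and 24 Mb held 10, 21, 4, 2 and 3 sites, and the final 0.0311 Mb of the arm held 2 more. The steps at 23.5 and 24 Mb lay below all 44 full steps in the rest of 3L (4 to 49 sites, median 19), and the step at 23 Mb equalled the lowest of them. On X the steps starting at 20, 20.5, 21, 21.5 and 22 Mb held 17, 21, 23, 7 and 4 sites. The last covers 0.416 Mb and had 9.62 sites per Mb, below all 40 full steps in the rest of X (7 to 45 sites, median 25), and the one before it equalled the lowest.

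On 3R, where the centromere lies at low coordinates, the steps starting at 1.5, 1, 0.5 and 0 Mb held 13, 43, 22 and 22 sites. The full steps in the rest of 3R held 5 to 46 sites with a median of 19. The step next to the centromere was therefore above that median, and the step at 1 Mb was matched or exceeded by 1 of the 51 full steps. That step decided the direction of the 3R comparison. Without it, a choice made after seeing the data, the 3R end held 38.0 sites per Mb and the ratio to the rest was 0.929 (0.699 to 1.21), with 0.843 (0.671 to 1.05) in replicate 1 and 0.904 (0.700 to 1.15) in replicate 2. On 3L, leaving out the step at 22.5 Mb, which held 21 of the 42 sites, gave a ratio of 0.253. On 2L, leaving out the step nearest the centromere gave 0.932 (0.740 to 1.16). The replicate values without it were 1.04 (0.876 to 1.22) in replicate 1 and 0.988 (0.811 to 1.19) in replicate 2. The joined 2L interval also included 1 without the step at 21.5 Mb (0.851, 0.667 to 1.07) or at 22 Mb (0.808, 0.630 to 1.02). It stayed below 1 without the step at 20, 20.5 or 21 Mb. In both replicates, the 2L interval included 1 even with all steps kept.

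**Figure D2:**
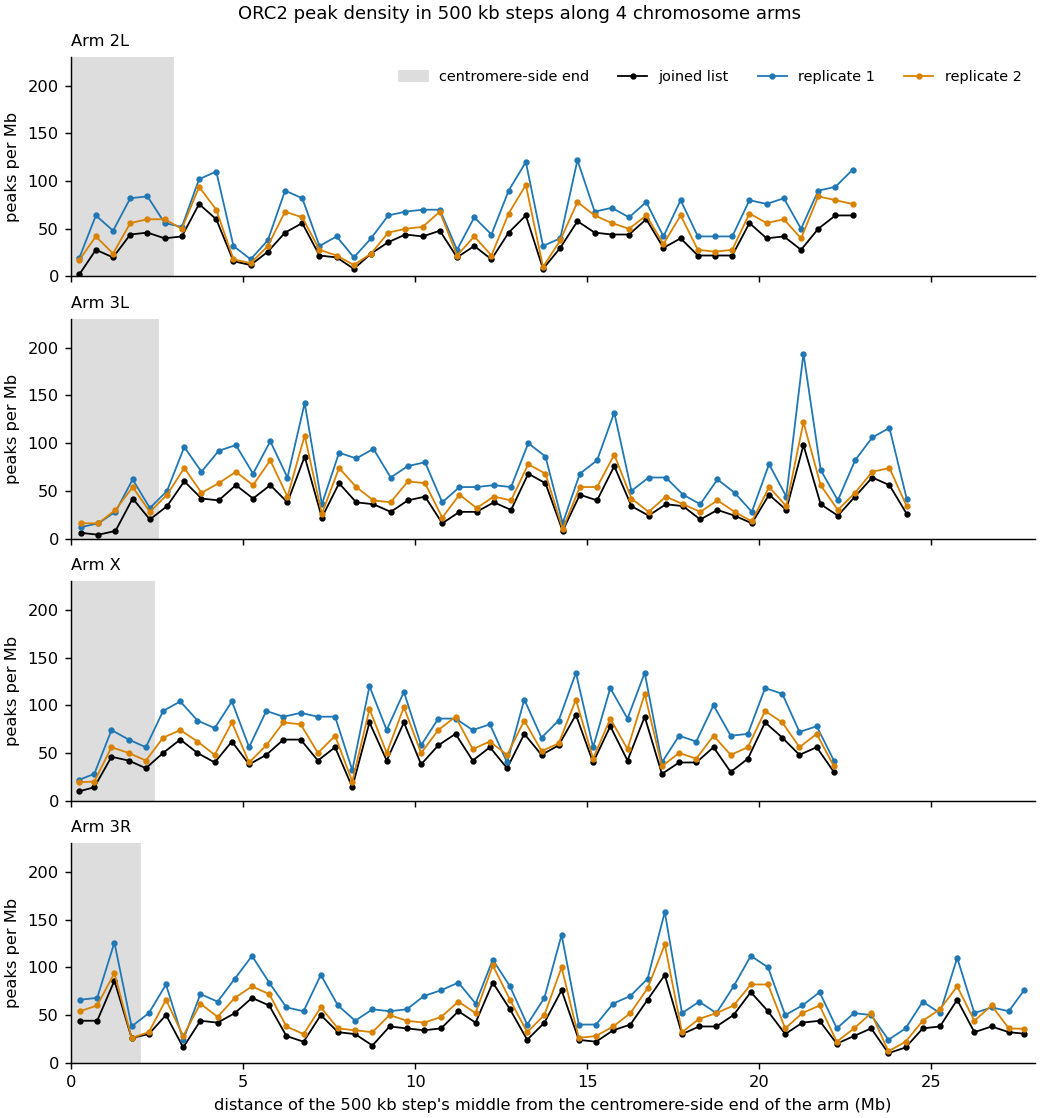
Peaks per Mb in 500 kb steps (vertical axis) against the distance of each step's middle from the centromere-side end of the arm in Mb, for the joined list and both replicates, with the centromere-side end shaded. Steps shorter than 0.25 Mb are not drawn. The 3 lists follow each other, the joined list reaches 2.17 per Mb at the left edge of 2L, and 3R starts at 44.0 per Mb.

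Measured over the 1 Mb nearest the centromere, 3L held 6 joined sites (2.20 to 13.1 per Mb), X held 13 (6.92 to 22.2) and 2L held 15 (8.40 to 24.7). These densities were 0.147 (0.0537 to 0.321), 0.244 (0.13 to 0.419) and 0.393 (0.219 to 0.652) times those of the rest of 3L, X and 2L. The 1 Mb nearest the centromere on 3R held 44 sites (32.0 to 59.1 per Mb), 1.08 times the density of the rest of 3R (0.777 to 1.45). In the remainder of the ends, 2L was level with its arm at a ratio of 1.00 (0.779 to 1.27) and X was at 0.783 (0.592 to 1.02). On 3L the remainder was at 0.575 (0.4 to 0.803), and on 3R it was at 1.37 (1.03 to 1.79). In the joined list, the remainder was thus below its arm beyond counting error on 3L and above it on 3R. The 3R values in the single lists, 1.21 (0.954 to 1.50) in replicate 1 and 1.16 (0.882 to 1.51) in replicate 2, included 1. The X remainder was below 1 in both, at 0.794 (0.638 to 0.977) in replicate 1 and 0.786 (0.611 to 0.997) in replicate 2. The 3L remainder was at 0.554 (0.422 to 0.714) in replicate 1 and 0.738 (0.557 to 0.961) in replicate 2.

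Both replicates showed this on 3 arms. In replicate 1 the ratio of the nearest 1 Mb to the rest of the arm was 0.232 (0.135 to 0.373) on 3L, 0.311 (0.202 to 0.457) on X and 0.636 (0.454 to 0.867) on 2L. In replicate 2 it was 0.312 (0.178 to 0.509) on 3L, 0.309 (0.188 to 0.479) on X and 0.592 (0.394 to 0.855) on 2L. On 3R the replicate values were 0.985 (0.760 to 1.26) and 1.10 (0.832 to 1.44).

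Beyond the arm sequences, the Het scaffolds of the same chromosomes gave values to set beside these. The 3LHet scaffold held 14 joined sites, or 5.63 per Mb (3.08 to 9.45), and the 6 per Mb of the nearest 1 Mb of 3L lies within that interval. The 3RHet scaffold held 13, or 5.17 per Mb (2.75 to 8.83), against 44.0 per Mb in the nearest 1 Mb of 3R, and these intervals do not overlap. The 2LHet and XHet scaffolds held 2 and 3 sites, too few for a comparison.

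Long stretches without a joined site made up much of the ends of 3L and X. The summed length of intervals of at least 100 kb between neighbouring joined sites came to 77.3% of the 3L end. In the rest of 3L it came to 29.6%. On X it was 61.2% of the end, against 29.1% of the rest. On 2L the shares were 43.0% in the end and 43.7% in the rest, and on 3R they were 23.5% and 33.3%. Each interval was counted whole in the part holding its middle. On each arm 1 such interval crossed the limit, so these shares are approximate. Those of 2L are too close to give an order. The single lists gave lower shares with the same order on 3L and X. On 3L the end had 50.2% against 19.4% in the rest in replicate 1, and 40.3% against 23.9% in replicate 2. On X these were 48.7% against 21.9% in replicate 1 and 48.8% against 25.2% in replicate 2. The 2L end had 28.5% in replicate 1 and 25.6% in replicate 2, against 27.0% and 33.4% in the rest. In the joined list, the longest interval of the whole arm lay in the end on 2L (22473153 to 22960946, 487.8 kb), on 3L (23573984 to 24021340, 447.4 kb) and on X (21495672 to 21857529, 361.9 kb). The longest in the 3R end (304638 to 467656, 163.0 kb) ranked 20 in its arm. The single lists ordered these differently. On 2L the longest interval was 230.2 kb in the end and 277.9 kb in the rest in replicate 1, and 231.75 kb and 307.6 kb in replicate 2. On 3L the end and the rest had 309.1 and 313.5 kb in replicate 1, and 240.2 and 332.0 kb in replicate 2. On X the end held the longest interval in replicate 1, at 361.3 kb against 257.5 kb, and the rest did in replicate 2, with 215.0 kb in the end and 273.7 kb in the rest.

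These intervals were not empty in the single lists. The 2L interval held 9 replicate 1 peaks and 7 replicate 2 peaks, none of which overlapped a peak of the other replicate. The 3L interval held 6 and 5 such peaks, the X interval 1 and 2, and the 3R interval 1 and 1. Of the windows of 100 kb on a fixed grid, 10 of 26 in the 3L end had no joined site, against 29 of 220 in the rest of 3L. In the X end 9 of 25 were empty, against 21 of 200, in the 2L end 8 of 30, against 33 of 200, and in the 3R end 1 of 20, against 29 of 259.

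**Figure D3:**
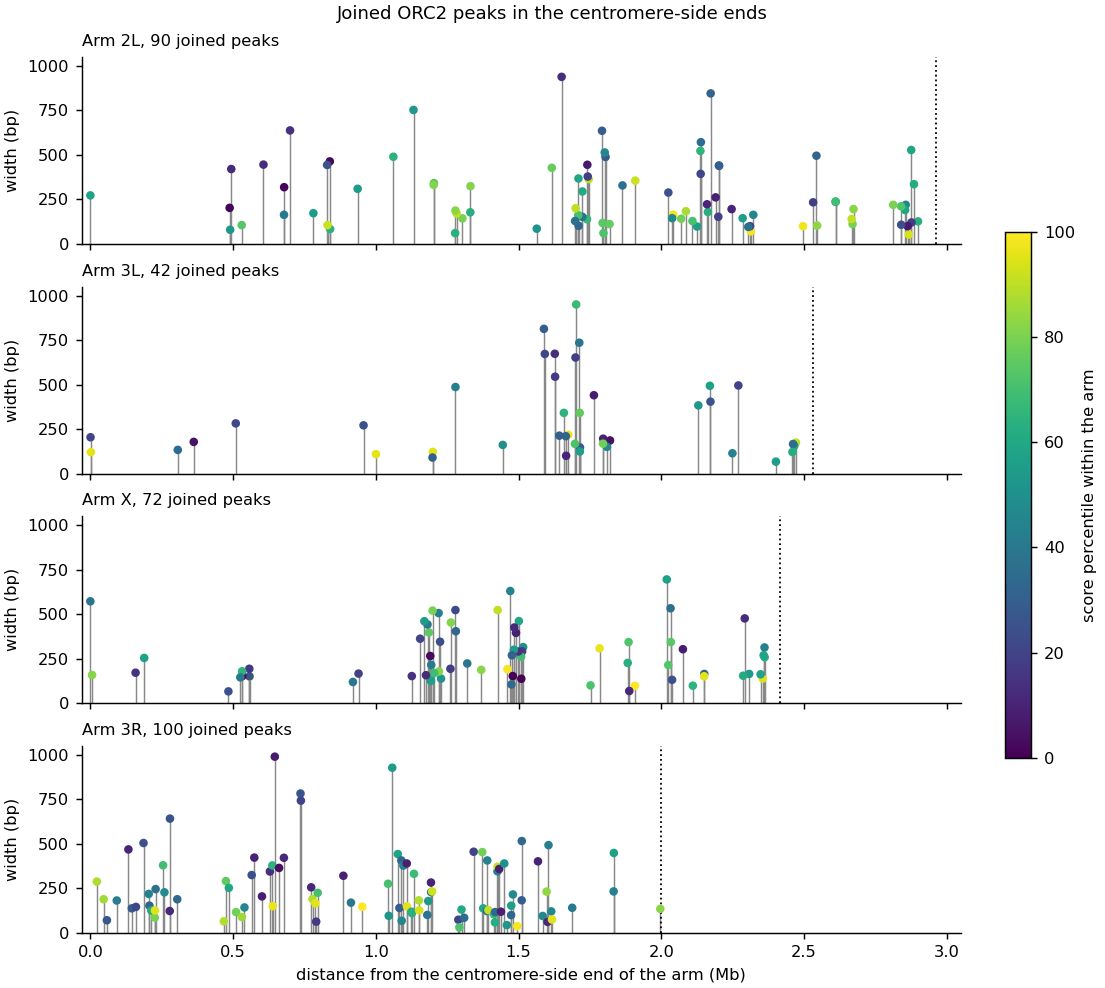
Each of the 304 joined sites in the ends, drawn by its distance from the centromere-side end of the arm in Mb (horizontal axis) and its width in bp (vertical axis), and coloured by the percentile of its score among all joined sites of its arm. Dotted lines mark the limit of the end. The left part of 2L, 3L and X is sparsely filled, with 15, 6 and 13 sites in the first 1 Mb, against 44 on 3R.

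The distance to the nearest neighbour had no common direction over arms and lists. In the joined list, the median distance from a site's midpoint to the nearest other joined site was 2790 bp in the 2L end, against 3646 bp in the rest of 2L. On 3L it was 2774 bp against 3272 bp, on X 3232 bp against 2353 bp, and on 3R 3825 bp against 3559 bp. The interquartile ranges overlapped on each arm. The single lists turned the order on 3L, where the ratio of the end to the rest was 0.848 in the joined list, 1.17 in replicate 1 and 1.18 in replicate 2. On 2L it was 0.765 in the joined list, 1.19 in replicate 1 and 0.832 in replicate 2. On X it was above 1 in all 3 lists, at 1.37, 1.12 and 1.37, and on 3R likewise at 1.07, 1.19 and 1.50. At the long extreme, 12 of 42 end sites on 3L (28.6%) were 20 kb or more from any other site, against 13.3% in the rest. This share was 18.9% against 11.8% on 2L, 15.3% against 9.86% on X and 11% against 14.5% on 3R. At the short extreme, 5 of the 3L end sites (11.9%) had a neighbour within 1 kb, against 24.8% in the rest. On X, 18.1% of end sites and 30.9% of the rest had a neighbour within 1 kb. On 2L this share was 26.7% in both, and on 3R it was 18.0% in the end and 26.4% in the rest.

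Joining sites less than 5 kb apart gave 55 groups or single sites in the 2L end, 28 in the 3L end, 41 in the X end and 70 in the 3R end. Their densities were 18.6 per Mb against 23.75 in the rest of 2L, 11.1 against 25.3 on 3L, 17.0 against 28.85 on X and 35.0 against 25.1 on 3R. The mean number of sites per group or single site was 1.64 in the 2L end and 1.61 in the rest of 2L. It was 1.5 against 1.61 on 3L, 1.76 against 1.85 on X and 1.43 against 1.63 on 3R. The most sites in 1 group were 5 on 2L, 4 on 3L, 6 on X and 3 on 3R, against 9, 19, 12 and 18 in the rest of these arms. These maxima come from unequal lengths, 2 to 2.96 Mb in the ends and 20 to 25.9 Mb in the rest. The fullest windows of 100 kb in the ends held 11 sites on 2L (21.2 to 21.3 Mb), 12 on 3L (22.8 to 22.9 Mb), 14 on X (20.9 to 21 Mb) and 13 on 3R (1.4 to 1.5 Mb). The fullest window in the rest held 19 on 2L, 20 on 3L, 20 on X and 27 on 3R.

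Width did not separate the ends from the rest. The median width of a joined site was 198.5 bp in the 2L end (interquartile range 129 to 367 bp), against 198 bp in the rest (127 to 349 bp). It was 200 bp against 182 bp on 3L, 219 bp against 194 bp on X and 185 bp against 190 bp on 3R. Pooled over the 4 arms the medians were 196 bp (136 to 369 bp) in the ends and 191 bp (126 to 330 bp) in the rest. The replicates differed in sign for this comparison, with 131.5 bp against 127.5 bp in replicate 1 and 102 bp against 105 bp in replicate 2. The widest joined sites of the ends were 939 bp on 2L (21309240 to 21310178), 950 bp on 3L (22828169 to 22829118), 695 bp on X (20395569 to 20396263) and 989 bp on 3R (646235 to 647223).

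**Figure D4:**
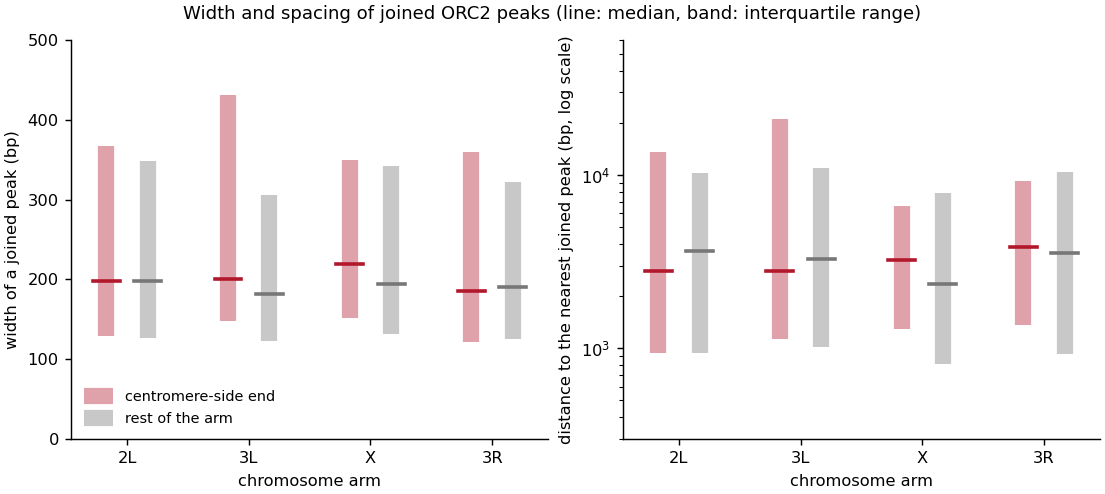
Width in bp (left panel) and distance to the nearest joined site in bp on a log scale (right panel) for joined sites, with the centromere-side end left of the rest of each arm. Lines are medians and bands are interquartile ranges, and the bands of end and rest overlap on every arm.

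The deposited score is the authors' value for a peak, and its unit is not stated. No source states that it shares a scale over chromosomes, so it was read within an arm. The median score of a joined site was 2.93 in the 2L end against 2.76 in the rest, 2.67 against 3.002 on 3L, 2.73 against 2.86 on X and 2.78 against 2.87 on 3R. Sites from the top 25% of the arm by score made up 24.4% of the end on 2L, 16.7% on 3L, 18.1% on X and 23% on 3R. High-scoring sites were present in each end, with 10 of 90 on 2L, 5 of 42 on 3L, 6 of 72 on X and 11 of 100 on 3R in the top 10% of their arm.

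The highest-scoring site of the X end had 8.54 at 20507880 to 20507976. Its replicate 1 peak was 5 bp wide with a score of 8.13, and its replicate 2 peak was 97 bp wide with 8.95. The next on X was a 191 bp site at 20954384 to 20954574 with 7.05 (7.08 and 7.02 in the replicates), followed by 5.55 at 20631421 to 20631728. On 3R the site at 952726 to 952871 had 7.16 (6.90 and 7.41), the 37 bp site at 1495334 to 1495370 had 6.74, and that at 638968 to 639116 had 5.71. At each of these X and 3R sites the replicate scores lay within 1 unit of each other.

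On 2L the leading sites were at 20647491 to 20647561 (6.49), 20918856 to 20919020 (6.33) and 20464506 to 20464605 (6.12). All of these lie in the first 1 Mb of the end, on the side away from the centromere. On 3L they were at 22856799 to 22857016 (6.27, with 5.66 in replicate 1 and 6.88 in replicate 2), 23530494 to 23530602 (5.85) and 24529178 to 24529297 (5.69). The last 2 lie within the sparse part of 3L, at percentiles 96.0 and 95.5 of the arm by score.

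The sites just inside the limits of the ends began at 20061454 on 2L (127 bp, score 3.14), 22058888 on 3L (174 bp, 4.65), 20053086 on X (258 bp, 3.18) and 1996583 on 3R (134 bp, 3.88). Those just outside began at 19935174 on 2L (259 bp, 2.82), 21948137 on 3L (218 bp, 2.51), 19786068 on X (322 bp, 1.98) and 2171576 on 3R (115 bp, 4.35).

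Whether a peak was found in both replicates was measured in the replicate lists, where an overlap of 1 bp or more with any peak in the list of the other replicate made it shared. In the ends, 306 of 524 replicate 1 peaks (58.4%, 54.0 to 62.7%) and 310 of 412 replicate 2 peaks (75.2%, 70.8 to 79.3%) were shared. Over the whole lists these shares were 57.8% and 80.5%, and over the 4 arms 60% and 81.7%. In the rest of the 4 arms they were 60.1% (58.9 to 61.3%) in replicate 1 and 82.2% (81.1 to 83.3%) in replicate 2. The replicate 2 intervals of ends and rest do not overlap, and those of replicate 1 do.

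The widest gap in replicate 2 was on 3L. Its end had 43 shared peaks among 74 (58.1%, 46.1 to 69.5%), against 81.3% (78.9 to 83.5%) in the rest of 3L. Without 3L, the difference between ends and rest over the other arms was -3.50 percentage points, against -6.97 with it. On 2L the shares were 72.1% (63.5 to 79.6%) in the end and 80.1% (77.5 to 82.6%) in the rest, and on X 79.3% (69.6 to 87.1%) and 85.1% (83.03 to 87.0%). On 3R the end was the higher, at 86.3% (78.7 to 92.0%) against 81.75% (79.6 to 83.8%).

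Replicate 1 gave 51.7% against 59.6% on 2L, 53.2% against 56.1% on 3L, 60% against 64.0% on X and 67.8% against 60.4% on 3R, with overlapping intervals on each arm. Both replicates thus had a lower share in the end on 2L, 3L and X and a higher one on 3R. When peaks under 50 bp were left out, the replicate 1 difference turned positive on 3L and X, at 0.70 and 2.15 percentage points.

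Sharing was lower next to the centromere than in the remainder of the end, on each arm and in both replicates, but the intervals of the compared shares overlapped in all 8 comparisons. In the 1 Mb nearest the centromere, 36.6% of replicate 1 peaks on 2L, 35.3% on 3L and 50% on X were shared, against 65.7% on 3R. The replicate 2 shares there were 51.7%, 37.5% and 65% on 2L, 3L and X, against 78.9% on 3R. In the remainder of the ends, 56.3% of replicate 1 peaks were shared on 2L, 58.1% on 3L, 62.8% on X and 69.5% on 3R. In replicate 2 these were 78%, 63.8%, 83.3% and 93.3% on 2L, 3L, X and 3R. On 2L, the step from 22.5 Mb had 1 shared peak of 9 in replicate 1 and 1 of 8 in replicate 2. Both shares lay below every full step in the rest of 2L, where the lowest shares were 25% and 59.5%. On 3L, the steps from 23 and 23.5 Mb had 28.6% and 25% shared in replicate 1 and 26.7% and 25% in replicate 2, each below all full steps of the rest of 3L. The low shares did not continue to the end of 3L in replicate 1, where the step from 24 Mb had 3 shared peaks of 6 (50%), a share matched or undercut by 11 of 44 full steps in the rest. In replicate 2 that step had 3 of 8 (37.5%), below all of them.

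Shared and unshared peaks were distributed differently along the last 3 Mb. Over 2L, 3L and X together, counted from the end of each arm, successive steps of 500 kb held 13, 21, 47, 56, 51 and 72 shared replicate 2 peaks with growing distance from the centromere. The same steps held 18, 13, 19, 13, 16 and 17 replicate 2 peaks without a counterpart. The density of shared peaks thus ran from 8.67 to 48.0 per Mb over these steps, while that of unshared peaks stayed between 8.67 and 12.7 per Mb. In the whole ends, unshared replicate 2 peaks reached 10.3 per Mb, against 9.59 in the rest of the 4 arms.

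In replicate 1 the unshared peaks were fewer near the centromere too, with 20, 30, 43, 33, 36 and 38 in the same steps beside 13, 21, 46, 55, 51 and 67 shared peaks. In the step next to the end, 13 peaks of each replicate were shared, while 20 in replicate 1 and 18 in replicate 2 were not. On 3R the shared peaks of replicate 2 numbered 22, 23, 43 and 13 over the 4 steps of the end, and the unshared ones 5, 7, 4 and 0.

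**Figure D5:**
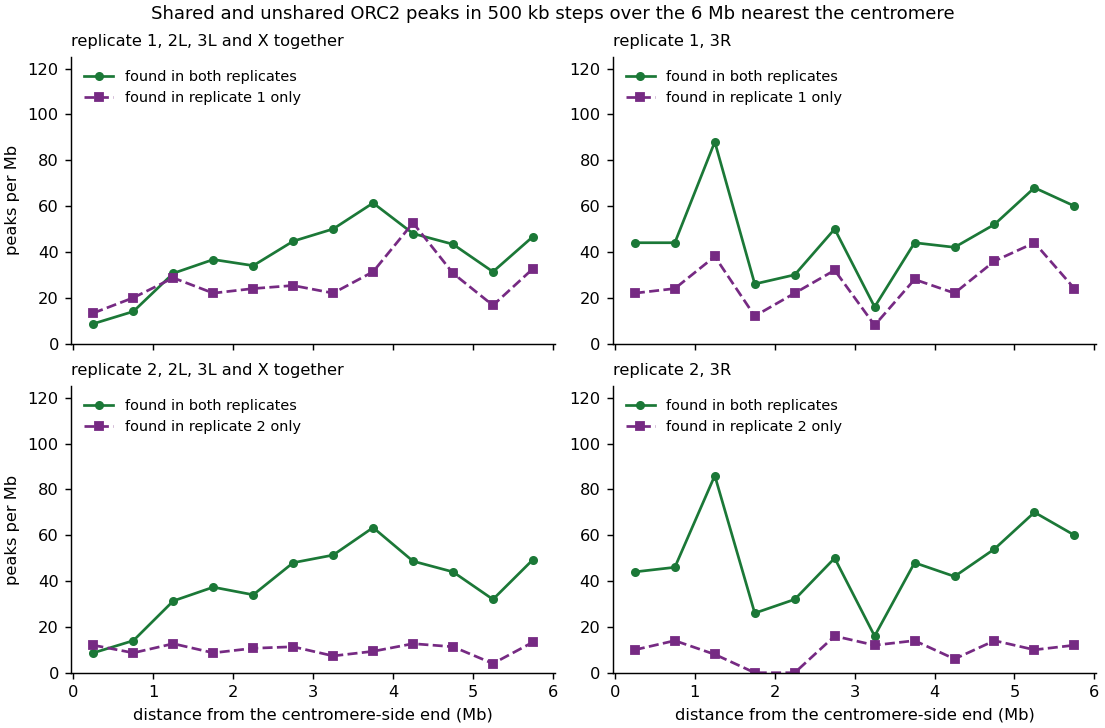
Peaks per Mb (vertical axis) found in both replicates or in 1 replicate, in 500 kb steps over the 6 Mb nearest the centromere (horizontal axis, Mb from the end of the arm), for 2L, 3L and X together and for 3R. On 2L, 3L and X the shared peaks start at 8.67 per Mb in both replicates, while unshared replicate 2 peaks start at 12 per Mb.

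Unshared peaks of the ends were narrow, as in the rest of the arms. In the ends, shared replicate 1 peaks had a median width of 180 bp and unshared ones 69.5 bp, against 179 and 69.0 bp in the rest. For replicate 2 the medians were 129 and 45.5 bp in the ends, against 123 and 35.0 bp in the rest. A wide peak can meet the rule of 1 bp of overlap more readily than a narrow one, so sharing and width are not independent here. Widths under another overlap rule were not compared.

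Where a joined site combined 1 peak of each replicate, as 296 of the 304 did, the positions and scores of both replicates could be set side by side. Their midpoints differed by a median of 20.5 bp in the ends and 17 bp in the rest. On 3L these distances were 27 and 17 bp. Read within each arm, the Spearman correlation of the replicate scores across sites was 0.751 in the end and 0.8001 in the rest on 2L. It was 0.737 against 0.787 on X, 0.742 against 0.763 on 3R and 0.763 against 0.769 on 3L. The value was lower in the end on each arm, by little on 3L, whose end had 41 such sites. No interval was computed for these correlations, and the differences were not tested. The replicate 2 peak was the narrower one in 81.1% of the paired sites in the ends and 79.8% in the rest, with median width ratios of 0.782 and 0.788. Replicate 2 had the higher score at 152 of the 296 sites (51.4%), against 44.5% of 3665 sites in the rest. On 3L it was the higher at 12 of 41 end sites (29.3%), against 38.0% in the rest of 3L. On 3R it was the higher at 59 of 98 (60.2%), against 53.0%. These shares were 52.3% against 39.3% on 2L and 50.7% against 45.4% on X. No source states that both libraries share a score scale. The pooled shares also mix arms unequally, as 3R gave 98 of the 296 end sites and 1023 of the 3665 sites in the rest.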

How the data were processed

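Peak lists were analysed for 2 ORC2 ChIP-seq libraries (replicates from separate extractions) and for the series; the input library was not analysed here. The authors called peaks with PeakSeq and deposited 1 score per peak, per the file headers and source columns. The score's unit, the aligner, the calling threshold and the depth were not given in the sources used here. Coordinates are on FlyBase release 5. Genes and sequences around the sites were not analysed here, as the gene table used is built on release 6.

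A peak belongs to an end by its start. Arm length is the largest peak end on the arm in either replicate, so 2L, 3L and X end at a peak by construction. Densities carry exact 95% Poisson intervals, density ratios exact conditional binomial intervals, and shares exact Clopper-Pearson intervals. Spacing is the distance between midpoints, an interval without a site belongs to the part holding its middle, and steps lie on a fixed grid of 500 kb unless counted from the end of the arm. The density ratio, the median widths and the shared percentages were tested on simulated lists. Nearest-neighbour distance, joining of close sites and the ratio interval were checked on small hand-made cases. The other computations were not tested in this way.

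Named sites were, for each end, the 3 highest scores, the widest site, the site nearest the centromere, the longest interval and the fullest 100 kb window. The set of regions and the comparisons were chosen with earlier results of these data known. Alternatives, whose effect is given in the closing section, covered other lists, limits, filters, overlap rules and arms. Computation used scipy 1.17.1 and pandas 2.3.3 under Python 3.11.15 with numpy 2.4.6, and plots used matplotlib 3.10.9.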

Additional observations from a re-analysis of the deposited data

Results flagged for a closer look

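The 3R end stood apart from the other 3 because its direction was opposite in both replicates. Its ratio of density in the end to that in the rest was 1.54 times the 2L ratio, 3.01 times the 3L ratio and 2.18 times the X ratio in the joined list. In each replicate alone, the intervals of the 3R and 2L ratios both included 1. The difference between arms was not tested, and without the densest 500 kb step the joined 3R ratio was 0.929.

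The share of peaks found in both replicates, taken as end minus rest, was also above 0 on 3R and below 0 on 2L, 3L and X in both replicates. In the replicate with the smaller gap, 3R lay 12.6 percentage points above 2L, 10.4 above 3L and 10.3 above X. These gaps were not tested either.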

How the results depend on the processing

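The density ratio of ends to rest (0.712) stayed below 1 under every alternative run. It was 0.734 to 0.771 with 1 replicate left out, 0.742 with limits 500 kb farther from the centromere, 0.763 with sites under 5 kb apart counted as 1, and 0.682, 0.810, 0.778 and 0.591 without 2L, 3L, X and 3R. Without the densest 3R step, chosen after seeing the data, it was 0.642, and on 3R alone 0.929. The density of the nearest step over the farthest step of the ends, pooled over the 4 arms, was 0.533. It was 0.667 to 0.697 with 1 replicate left out, 0.760 in 250 kb steps and 0.641 in 1 Mb steps. This pooled value joins arms of opposite direction. In the joined list, the nearest and farthest steps held 2.17 and 40 sites per Mb on 2L and 6 and 20 on 3L, whose short last step was passed over. On X they held 9.62 and 34, but on 3R 44 and 26.

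Width and spacing did not hold a direction. The median width difference (5 bp) ranged from -3 to 4 bp with 1 replicate left out, and was 0 bp in the higher-scoring 50% of each arm, 11 and 14 bp with limits 500 kb nearer and farther, and 12.5 bp without 3R. The nearest-neighbour ratio (1.09) was 1.22 to 1.23 with 1 replicate left out, 1.06 in the higher-scoring 50%, 1.02 without sites under 50 bp, 1.07 and 1.05 with limits nearer and farther, 1.06 without 2 Mb at the telomere side, and 1.115 between consecutive midpoints. It was 1.18, 1.13, 0.986 and 1.015 without 2L, 3L, X and 3R, and 0.976 after joining sites under 1 kb apart.

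The replicate 1 sharing difference (-1.71 points) reversed to 0.835 without peaks under 50 bp and to 1.55 without 2L. On 3L it reversed to 0.702 without peaks under 50 bp, 3.595 in the higher-scoring 50% and 0.796 with limits farther, and on X to 2.15 without peaks under 50 bp. The replicate 2 difference (-6.97 points) was -11.55 without 3R and stayed below 0 throughout. The cause of these shifts was not tested. Leaving out a replicate gives no sharing value. ChIP and input could not be analysed as pairs, because these groups share fewer than 2 replicate numbers. Ends and rest were compared within each ChIP library, and no test over both libraries was run. Unknown read depth limits every density, since a deeper library can yield more peaks. Densities were also taken over total length, and repeats, unmappable sequence and assembly gaps were not removed. The bearing of this on the densities of the ends and the Het scaffolds was not tested.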

Other observations

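On 2L, 3L and X, joined sites lay at the very end of the arm after a long stretch with none. The last site of 2L (22960947 to 22961219, 273 bp, score 2.97) followed 487.8 kb without a joined site. On 3L, sites at 24529178 to 24529297 and 24530257 to 24530460 (204 bp, score 2.34) followed 304.4 kb without one, and on X the site at 22415025 to 22415596 (572 bp, score 2.62) and 1 other in the last 10 kb followed 152.3 kb. On 3R the first joined site began at 22797 (287 bp, score 4.28), and neither replicate had a peak in the first 10 kb. The ends of 2L, 3L and X were set by the largest peak end, so a peak at the end follows from that definition, while the long stretch before it does not. The 3R end was counted from the first base, so its first 10 kb is not a like window.

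Replicate widths at these positions differed much at the last sites of 2L and X and less at the other sites. The last 2L site had scores of 2.97 and 2.97 and widths of 273 and 68 bp in replicates 1 and 2, and the last X site had 2.64 and 2.61 and widths of 572 and 74 bp. On 3L the last site was 142 and 181 bp wide in replicates 1 and 2 and the one before it 119 and 80 bp, and the first 3R site was 272 and 245 bp wide.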
